A study of Homo sapiens with 6 samples.

Results

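The genes encoding TBP, the TBP-associated factors (TAFs) and the general transcription factors were examined in LX-2 cells after silencing of OGT, which encodes the enzyme that adds O-linked N-acetylglucosamine to proteins. Members were taken by symbol. They were TBP, TBPL1, BTAF1, BRF1, BRF2, every symbol made of TAF followed by a digit, and every symbol starting with GTF2 or GTF3 except those starting with GTF2I, with a total of at least 10 counts over the libraries. This gave 50 of the 16907 genes in the files, and none was dropped by the count minimum. The lowest totals just inside it were TAF1L with 14.01 counts and TAF7L with 19 counts, and no matching symbol lay outside. All other members had totals of at least 500 counts. The group was assembled with the higher TBP level in these libraries already known, so counts that include TBP are not independent evidence of its direction, and TBP is given below as a description beside them.

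LX-2 is an established human hepatic stellate cell line, grown here in DMEM with 5% FBS. The siControl group received a non-targeting siRNA (Ambion) and the siOGT group a pool of siRNAs against OGT (Horizon Discovery), both at 20 nM for 72 h and with 3 biological replicates per group. The reagents came from different suppliers, so an effect of the reagent and an effect of losing OGT cannot be told apart, and all results concern a cell line and not primary stellate cells. Poly(A)-selected, stranded RNA-seq libraries held between 25996770 and 27966801 expected counts, and the members took between 0.246% and 0.268% of them. OGT itself had 4737, 3489 and 3383 counts in siControl and 1079, 726 and 782 in siOGT, a log2 fold change (log2 FC) of -2.18 (edgeR BH-adjusted p of 2.71e-12). Of 10 stellate cell and myofibroblast markers, 9 had at least 10 counts, with VIM and COL1A1 the most abundant. ACTA2 was low, with 4.73 to 9.69 CPM (counts scaled to a common library size). DES had 17 counts in all 6 libraries together, and LRAT, a marker of quiescent stellate cells, had 2. Hepatocyte markers summed to at most 0.302 CPM in any library. The macrophage and leukocyte list summed to between 131 and 159 CPM in siControl and between 174 and 212 CPM in siOGT. Nearly all of it was CD68, which lysosomes of many cells contain. CD14 had 4.55 to 7.62 CPM, and the leukocyte marker PTPRC was at most 0.844 CPM in every library. Cholangiocyte markers summed to between 5.50 and 8.19 CPM in siControl and between 4.79 and 6.78 CPM in siOGT. Endothelial markers summed to between 3.18 and 7.69 CPM in siControl and between 3.06 and 5.65 CPM in siOGT.

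Transcription by every nuclear RNA polymerase starts with factors that place the enzyme at a promoter, and TBP is shared by all of them. At promoters of protein-coding genes TBP works inside TFIID with TAFs, and TFIIA, TFIIB, TFIIE, TFIIF and TFIIH join it. At ribosomal RNA genes TBP sits in SL1 with other TAFs, and at transfer RNA genes it sits in TFIIIB with BRF1 after TFIIIC has bound. In liver, activated stellate cells turn into myofibroblasts through a broad change in transcription that all runs through this shared machinery.

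Whether the machinery as a group moved with OGT silencing was asked with a test across all 14853 genes with at least 10 counts (edgeR quasi-likelihood test with the replicate number as a block, Benjamini-Hochberg (BH) adjustment over all genes, called at a BH-adjusted p of at most 0.05). Of the 50 members, 11 were called (22.0%), against 25.4% of all genes. Among them 9 were higher in siOGT (18%, against 12.7% of all genes) and 2 were lower (4.0%, against 12.7%). The higher members were TAF1D, GTF2E1, TBP, TAF1A, GTF2H1, GTF2H5, TAF3, GTF2F2 and TAF2, and the lower ones were GTF2A1 and TAF1. The share called was near that of all genes, with fewer calls lower than higher. All genes here include those with as few as 10 counts in total. Among the 12373 genes averaging at least 1 CPM, 29.9% were called, against 22.9% of the 48 members with at least 500 counts. That lower share came from calls lower in siOGT. Of the 12373 genes, 1844 were called higher (14.9%) and 1856 lower. Of the 48 members, 9 were called higher (18.75%) and 2 lower (4.17%). These differences in share were not tested. The median log2 FC was 0.08 over the members and 0.01 over all genes, and 33 of 50 members lay above 0 (66.0%, against 51.0% of all genes). Without TBP, 10 of 49 members were called, 8 higher and 2 lower, and the median was 0.07.

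The levels of the 3 siOGT libraries lay wholly above those of siControl for 10 members (12.1% of all genes) and wholly below for 3 (11.8% of all genes). TAF7L is among the 10 and TAF1L among the 3, each with at most 8 counts in a library. In all 3 replicate pairs 18 members were higher (36.0%, against 27.4% of all genes) and 9 were lower (18%, against 26.6%). These calls rested on the pairing of libraries. Without the replicate block edgeR called 0 of 50 members, 7 having an unadjusted p under 0.05, and 130 genes in all (0.875%). DESeq2 called 4 members with the block (TAF1D, TBP, GTF2E1 and GTF2H1), when it called 16.3% of all genes, and 2 without it (TAF1D and TBP), when it called 5.72%. Without replicate 1, edgeR called 4 (GTF2E1, GTF2F2, TAF1D and TBP) and 12.5% of all genes.

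**Figure D1:**
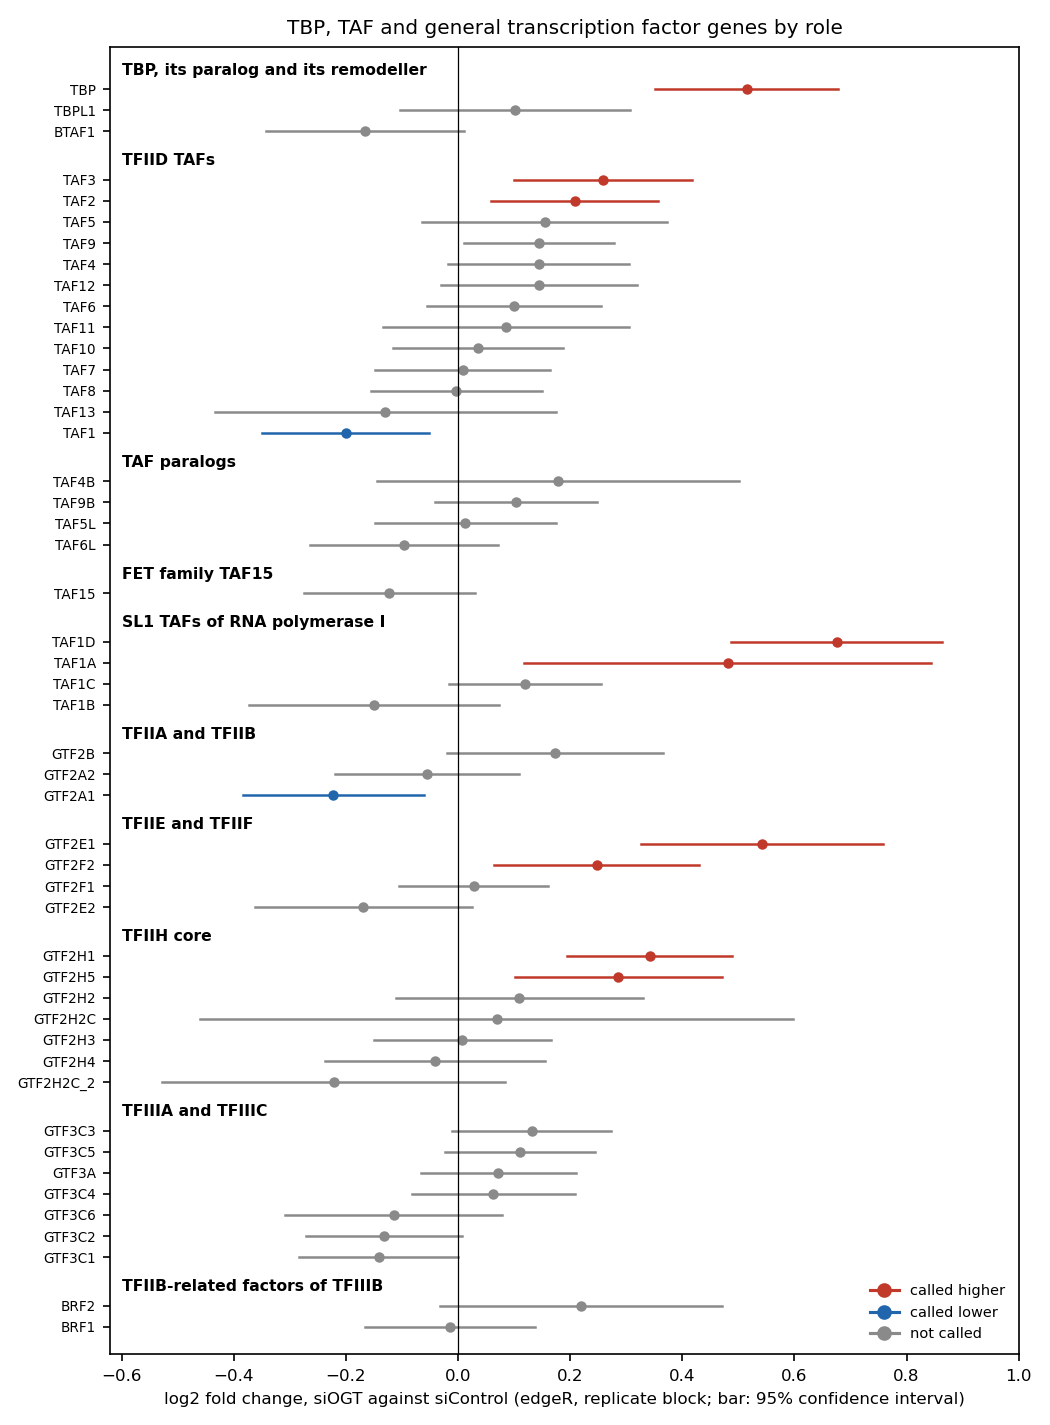
Log2 FC of siOGT against siControl (x axis) for the 48 members with at least 500 counts, grouped by role. Bars are 95% confidence intervals approximated from the F statistic of edgeR with the replicate block. Red and blue mark members called higher and lower, and grey marks members not called. The 9 red members run from 0.21 (TAF2) to 0.68 (TAF1D), the blue members GTF2A1 and TAF1 lie at -0.22 and -0.20, and most grey intervals cross 0.

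The sequences just around the start sites of the called members were laid out first, because these genes are themselves transcribed by the machinery they encode. RefSeq promoters (GRCh38.p14, from 250 bases before to 50 after the start, read on the gene's own strand) were matched for 43 of 50 members. BRF2, GTF2E2, GTF2H2C_2, TAF15, TAF1L, TAF2 and TAF8 had no entry used here. The 6 printed here are the 4 members with the lowest BH-adjusted p among those called higher and the 2 called lower. Capitals mark matches to the searched motifs on either strand. The TATA box was searched as TATAAA. For the GC box the letters were GGGCGG, and the CCAAT box is spelled by its name. The ETS motif was searched as CCGGAAG. For CRE the letters TGACGTCA were used. The NRF1 motif was searched as GCNTGCGC. Matches for YY1 were to AAGATGG.
TBP promoter, chr6:170554119-170554418, plus strand: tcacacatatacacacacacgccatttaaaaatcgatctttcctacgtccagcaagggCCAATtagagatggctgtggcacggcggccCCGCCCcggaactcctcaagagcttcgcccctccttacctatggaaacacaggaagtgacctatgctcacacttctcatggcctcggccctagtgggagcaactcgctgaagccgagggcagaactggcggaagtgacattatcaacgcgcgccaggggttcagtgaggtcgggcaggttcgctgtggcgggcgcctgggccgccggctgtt
TAF1D promoter, chr11:93741446-93741745, minus strand: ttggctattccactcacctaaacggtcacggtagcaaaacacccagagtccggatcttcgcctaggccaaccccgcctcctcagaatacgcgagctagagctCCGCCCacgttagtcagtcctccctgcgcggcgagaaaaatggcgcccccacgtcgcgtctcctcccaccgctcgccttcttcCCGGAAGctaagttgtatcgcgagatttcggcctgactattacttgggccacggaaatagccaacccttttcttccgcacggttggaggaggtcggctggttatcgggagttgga
GTF2E1 promoter, chr3:120742494-120742793, plus strand: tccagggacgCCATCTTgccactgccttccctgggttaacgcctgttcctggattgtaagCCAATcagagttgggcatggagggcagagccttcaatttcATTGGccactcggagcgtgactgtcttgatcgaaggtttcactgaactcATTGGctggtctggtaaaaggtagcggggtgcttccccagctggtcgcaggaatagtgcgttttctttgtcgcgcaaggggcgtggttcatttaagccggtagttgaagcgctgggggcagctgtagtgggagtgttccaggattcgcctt
GTF2H1 promoter, chr11:18322317-18322616, plus strand: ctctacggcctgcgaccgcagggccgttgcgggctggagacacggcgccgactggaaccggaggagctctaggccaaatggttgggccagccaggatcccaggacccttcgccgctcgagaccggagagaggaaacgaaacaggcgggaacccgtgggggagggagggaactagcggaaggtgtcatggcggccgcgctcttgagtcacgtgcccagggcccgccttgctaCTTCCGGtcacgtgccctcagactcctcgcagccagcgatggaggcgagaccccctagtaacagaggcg
TAF1 promoter, chrX:71366107-71366406, plus strand: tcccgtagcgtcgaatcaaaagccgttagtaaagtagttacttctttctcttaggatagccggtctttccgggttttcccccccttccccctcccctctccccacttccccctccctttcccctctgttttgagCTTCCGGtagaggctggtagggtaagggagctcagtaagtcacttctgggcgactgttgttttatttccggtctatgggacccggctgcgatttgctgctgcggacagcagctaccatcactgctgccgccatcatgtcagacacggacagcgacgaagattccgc
GTF2A1 promoter, chr14:81221341-81221640, minus strand: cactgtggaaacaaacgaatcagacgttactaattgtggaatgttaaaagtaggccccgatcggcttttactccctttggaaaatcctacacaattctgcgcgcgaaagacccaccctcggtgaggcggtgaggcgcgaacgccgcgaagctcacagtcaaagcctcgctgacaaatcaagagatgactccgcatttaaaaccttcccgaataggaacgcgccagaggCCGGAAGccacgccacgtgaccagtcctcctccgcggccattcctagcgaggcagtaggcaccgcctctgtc

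None of these 6 sequences holds TATAAA, which was found in 3 of 43 member promoters (6.98%) and in 9.47% of the 22198 promoters of protein-coding genes. The ETS motif stands once in TAF1D, GTF2H1, TAF1 and GTF2A1, the latter pair called lower and the former higher. It was found in 22 of 43 member promoters (51.2%), against 12.8% of protein-coding promoters. By call, it was in 4 of 8 promoters of members called higher, in 2 of 2 of those called lower and in 16 of 33 of those not called. TBP carries a GC box and a CCAAT box, and GTF2E1 carries 3 CCAAT boxes and a YY1 match. GC boxes were in 23 member promoters (53.5%, against 56.3%), CCAAT boxes in 16 (37.2%, against 34.7%) and the NRF1 motif in 11 (25.6%, against 15.1%). The CRE and YY1 motifs were in 3 and 5 member promoters (6.98% and 11.6%, against 2.26% and 6.04%). The motifs were counted independently of each other, and matches of different motifs may overlap. A match describes letters in this window, and binding was not measured.

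TBP, which bends DNA at the core promoter, was examined next. Its gene lies on chromosome 6 (170554302 to 170572870, plus strand, hg38). TBP had 897, 825 and 871 counts in siControl and 1285, 1109 and 1350 in siOGT. Scaled to CPM by the trimmed mean of M-values (TMM), the levels were 33.6, 32.4 and 31.2 in siControl and 47.6, 41.2 and 50.4 in siOGT. Every siOGT library lay above every siControl library, with a gap of 7.65 CPM between the groups. The siControl mean was 32.4 ± 1.17 CPM and the siOGT mean 46.4 ± 4.69 CPM (SD, n = 3 each), a 1.43-fold higher level. The log2 FC was 0.51 (SE 0.078, 95% confidence interval 0.35 to 0.68, edgeR BH-adjusted p of 1.37e-04). In the pairs, the log2 ratios were 0.50, 0.35 and 0.69. Among the 12373 genes averaging at least 1 CPM, 3.92% had a higher log2 FC than TBP. The TBP call held in 9 of 10 alternative settings and was lost without the replicate block (log2 FC 0.52, edgeR BH-adjusted p of 0.0521). The higher TBP level was known when the group was assembled, so these values describe it and give no independent evidence of its direction.

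The proteins that share or handle the TBP fold did not pass the test. TBPL1, a TBP-like protein that does not recognise the TATA box, had 13.99, 14.5 and 15.4 CPM in siControl and 16.4, 13.3 and 17.5 CPM in siOGT. These groups overlapped, and the log2 FC was 0.10 (95% confidence interval -0.10 to 0.31). On the opposite strand SLC2A12 covers 56.6% of the exonic bases of TBPL1, and the counting used strand. The count ratio of TBP to TBPL1 was 2.40, 2.24 and 2.02 in siControl and 2.91, 3.09 and 2.87 in siOGT. BTAF1, the ATPase that takes TBP off DNA, had 47.4, 37.9 and 43.6 CPM in siControl and 46.8, 36.9 and 32.0 CPM in siOGT. It was lower in 3 of 3 pairs, but most of the difference came from replicate 3 (log2 ratios -0.02, -0.04 and -0.44), and the log2 FC of -0.17 was not called (95% confidence interval -0.34 to 0.01).

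TFIID TAFs, the partners of TBP at protein-coding promoters, gave 3 calls among 13 members (23.1%, near the 25.4% of all genes). TAF3, whose finger domain reads trimethylated histone H3, and TAF2, which contacts the initiator element, were higher. TAF1, the scaffold of TFIID with tandem bromodomains, was lower, and the median over the 13 was 0.10. TAF3 had 33.6, 26.6 and 28.1 CPM in siControl and 43.3, 29.5 and 33.4 CPM in siOGT. Replicate 1 was the highest library of each group, and the groups overlapped although all 3 pairs rose (log2 FC 0.26, SE 0.076, edgeR BH-adjusted p of 0.0181). TAF2 had 55.0, 48.8 and 53.8 CPM in siControl and 65.7, 60.0 and 56.5 CPM in siOGT, with no overlap (log2 FC 0.21, SE 0.070, edgeR BH-adjusted p of 0.0379). The TAF3 call was lost without replicate 1 (BH-adjusted p of 0.219), and the TAF2 call without replicate 1 or 2 (0.243 and 0.217).

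TAF1 had 62.6, 54.1 and 54.6 CPM in siControl and 56.7, 49.7 and 43.1 CPM in siOGT. Each pair was lower in siOGT, but siOGT 1 lay above siControl 2 and 3 (log2 FC -0.20, SE 0.071, edgeR BH-adjusted p of 0.0461). The call was lost with library totals alone (0.0751) and without replicate 1 or 3 (0.126 and 0.172). TAF1 (chromosome X, 71366222 to 71532374, plus strand) ends 712 bases before the start of OGT on the same strand, and whether silencing of OGT bears on the level of its neighbour was not tested. The other 10 TFIID TAFs were not called and had log2 FCs between -0.13 (TAF13) and 0.15 (TAF5). TBP and its TFIID partners were then set side by side. The log2 ratio of TBP to the geometric mean of TAF1 to TAF13 was -0.24, -0.23 and -0.29 in siControl and 0.19, 0.05 and 0.32 in siOGT, a difference of 0.43, 0.28 and 0.60 in the pairs (0.44 ± 0.16, SD, n = 3). This ratio carries the rise of TBP itself, which was known when the group was assembled. It is no separate evidence and is given without a test.

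Paralogs of TFIID TAFs serve in particular tissues or, in the case of TAF5L and TAF6L, in the coactivator complex SAGA. Of 6 such members 0 were called by edgeR, against 25.4% of all genes, and 1 had an unadjusted p under 0.05. The count ratio of TAF9 to TAF9B was 1.07, 1.13 and 1.23 in siControl and 1.11, 1.24 and 1.18 in siOGT. TAF9 shares 6.71% of its exonic bases with AK6 on the same strand. TAF4B, a gonad-enriched form of TAF4, had 110, 169 and 236 counts in siControl and 185, 165 and 223 in siOGT, so that the libraries of a group differed more than the groups. The log2 FCs were 0.14 for TAF4, 0.18 for TAF4B, 0.01 for TAF5L and -0.10 for TAF6L. TAF7L, a germ cell and adipocyte form of TAF7, had 1, 0 and 2 counts in siControl and 6, 2 and 8 in siOGT, and was not called (edgeR BH-adjusted p of 0.125). TAF1L, a testis copy of TAF1, had between 1 and 5.01 counts in each library. At these counts the interval of the log2 FC was wide for both, 0.06 to 4.59 for TAF7L and -3.07 to 1.51 for TAF1L.

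SL1, the selectivity factor of RNA polymerase I at ribosomal RNA genes, held the largest log2 FC of the members with at least 500 counts. TAF1D (chromosome 11, 93729948 to 93784391, minus strand) had 405, 246 and 410 counts in siControl and 623, 447 and 619 in siOGT. In CPM these were 15.2, 9.66 and 14.7 against 23.1, 16.6 and 23.1. Replicate 2 was the lowest library of each group, yet the groups did not overlap, and the pairs gave log2 ratios of 0.60, 0.78 and 0.65. The log2 FC was 0.68 (SE 0.090, 1.597-fold, edgeR BH-adjusted p of 4.05e-05), and 1.77% of genes averaging at least 1 CPM had a higher one. The TAF1D call held in 9 of 10 alternative settings and was lost without the replicate block (edgeR BH-adjusted p of 0.125). TAF1A had 89, 64 and 90 counts in siControl and 132, 88 and 122 in siOGT. All 3 pairs were higher and the groups overlapped, with a log2 FC of 0.48 (SE 0.17, edgeR BH-adjusted p of 0.0495). Its call was lost in 8 of 10 alternative settings, among them without any of the replicates (BH-adjusted p of 0.0690 to 0.238).

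The other SL1 TAFs were not called. TAF1B, a TFIIB-like subunit, had 10.7, 10.4 and 10.6 CPM in siControl and 10.1, 9.25 and 9.25 CPM in siOGT, wholly below siControl, with a log2 FC of -0.15 that was not called (95% confidence interval -0.37 to 0.07). TAF1C had 101, 92.0 and 93.3 CPM in siControl and 107, 97.4 and 107 CPM in siOGT, a log2 FC of 0.12 (95% confidence interval -0.02 to 0.26).

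TFIIE recruits TFIIH to the polymerase, and only its large subunit was called. GTF2E1, which encodes the large subunit (chromosome 3, 120742637 to 120783069, plus strand), had 10.7, 8.72 and 9.24 CPM in siControl and 17.0, 12.2 and 12.7 CPM in siOGT. The groups did not overlap, and replicate 1 was the highest library of each. The log2 FC was 0.54 (SE 0.10, 1.46-fold, edgeR BH-adjusted p of 9.47e-04). GTF2E2, the small subunit, had 17.99, 15.99 and 18.3 CPM in siControl and 17.4, 14.4 and 14.7 CPM in siOGT, a log2 FC of -0.17 that was not called (edgeR BH-adjusted p of 0.195). The count ratio of GTF2E1 to GTF2E2 was 0.592, 0.546 and 0.506 in siControl and 0.977, 0.845 and 0.864 in siOGT. Its log2 difference was 0.72, 0.63 and 0.77 in the pairs, all one way. This ratio was chosen after the values were seen and is given without a test.

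TFIIF escorts RNA polymerase II into the complex. GTF2F2 had 22.2, 21.8 and 22.6 CPM in siControl and 22.5, 27.3 and 29.6 CPM in siOGT. Replicate 1 did not move (log2 ratio 0.02) and the others rose (0.33 and 0.39), and the log2 FC was 0.25 (SE 0.087, edgeR BH-adjusted p of 0.0443). The call was lost without replicate 2 or 3 (0.162 and 0.234). GTF2F1, its partner, averaged 157 ± 12.1 CPM in siControl against 160.2 ± 9.18 CPM in siOGT (SD, n = 3 each), with a log2 FC of 0.03 (95% confidence interval -0.10 to 0.16).

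TFIIH opens the DNA and also serves in nucleotide excision repair. GTF2H1, a core subunit (chromosome 11, 18322295 to 18367045, plus strand), had 47.2, 44.2 and 53.4 CPM in siControl and 64.9, 54.2 and 64.5 CPM in siOGT. The lowest siOGT library stood only 0.789 CPM above the highest siControl library, but every pair was higher (0.46, 0.29 and 0.27). The log2 FC was 0.34 (SE 0.070, 1.27-fold, edgeR BH-adjusted p of 0.00169), and the call was lost without replicate 1 (BH-adjusted p of 0.0540). GTF2H5, the smallest TFIIH subunit, which is altered in a form of trichothiodystrophy, had 15.3, 13.9 and 15.9 CPM in siControl and 17.99, 17.3 and 19.6 CPM in siOGT. These groups did not overlap (log2 FC 0.29, SE 0.088, edgeR BH-adjusted p of 0.0235), and the call was lost without any of the replicates (0.0702 to 0.0923).

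The remaining core TFIIH members were not called, with log2 FCs of 0.01 for GTF2H3 and -0.04 for GTF2H4. GTF2H2 and its near-identical copies GTF2H2C and GTF2H2C_2 share reads, so their separate values are uncertain. Alone they had log2 FCs of 0.11, 0.07 and -0.22. Summed, they had 612, 589 and 675 counts in siControl and 627, 615 and 612 in siOGT, with a log2 FC of -0.03 (95% confidence interval -0.19 to 0.14).

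TFIIA steadies TBP on DNA. GTF2A1, whose product is cut into the large TFIIA subunits (chromosome 14, 81175452 to 81221377, minus strand), had 29.9, 31.9 and 29.9 CPM in siControl and 25.4, 26.0 and 27.2 CPM in siOGT. The groups did not overlap, and the log2 FC was -0.22 (SE 0.077, edgeR BH-adjusted p of 0.0409). The call was lost with library totals alone (0.0664) and without replicate 1 or 2 (0.188 and 0.191). GTF2A2, the small subunit, and GTF2B, which links TBP to the polymerase, had log2 FCs of -0.06 and 0.17 and were not called.

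**Figure D2:**
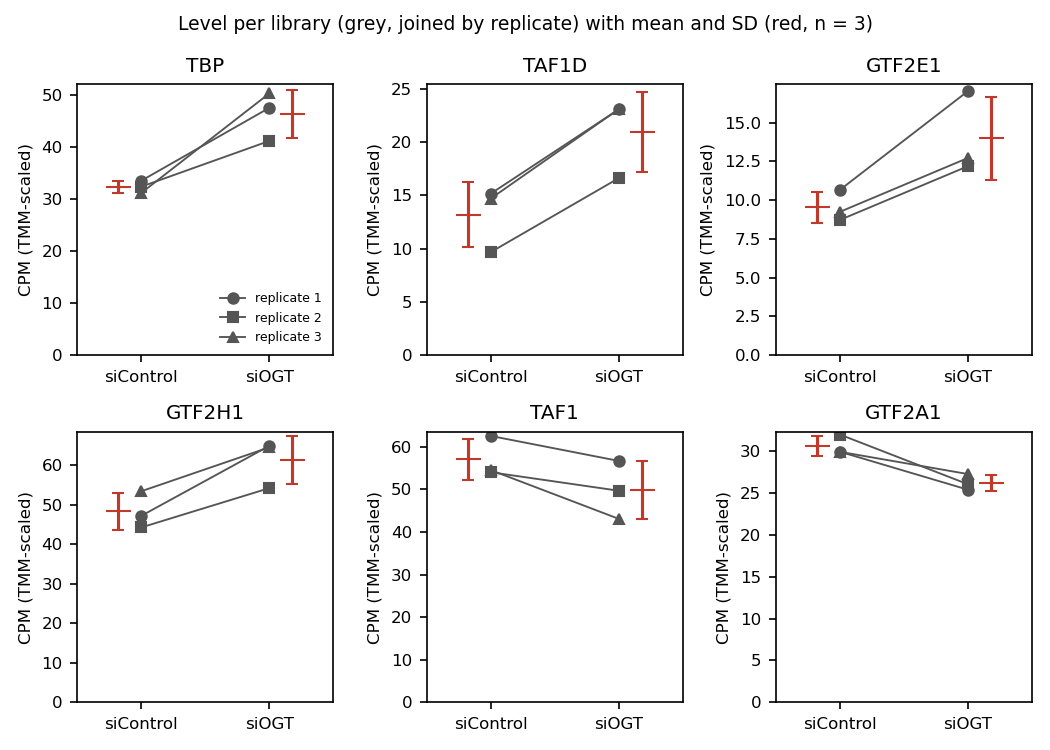
TMM-scaled CPM (y axis, from 0) of TBP, TAF1D, GTF2E1, GTF2H1, TAF1 and GTF2A1 in the 3 siControl and 3 siOGT libraries, joined by replicate, with the group mean and SD in red (n = 3). All lines slope up in the first 4 panels and down in the TAF1 and GTF2A1 panels, and TBP moves from between 31.2 and 33.6 CPM to between 41.2 and 50.4 CPM.

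Apart from TBP, the factors of RNA polymerase III showed no call. TFIIIC and GTF3A bring the polymerase to transfer RNA and small ribosomal RNA genes. Of these 7 members 0 were called by edgeR, against 25.4% of all genes, and 1 had an unadjusted p under 0.05. Their log2 FCs ran from -0.14 (GTF3C1) to 0.13 (GTF3C3). GTF3C5 lay wholly above siControl, with 188, 196 and 199 CPM against 208, 204 and 219 CPM, yet its log2 FC was 0.11 (edgeR BH-adjusted p of 0.224). BRF1 had a log2 FC of -0.01 (95% confidence interval -0.17 to 0.14). BRF2, which replaces BRF1 at promoters of the U6 type, had 278, 255 and 363 counts in siControl and 429, 271 and 355 in siOGT. Only replicate 1 differed clearly (log2 ratios 0.61, 0.01 and 0.03), and the log2 FC of 0.22 was not called (edgeR BH-adjusted p of 0.196). ADGRA2 covers 60.0% of the exonic bases of BRF2 on the opposite strand. TAF15, an RNA-binding protein of the FET family, had a log2 FC of -0.12 and was not called.

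Levels were then compared between members as CPM per kilobase of exon in siControl, for the 49 with an annotated length. They ran from 0.0134 for TAF7L to 54.7 for GTF2F1, with a median of 5.02. GTF3C5 (54.1) and TAF6 (48.4) followed GTF2F1, and TBP had rank 10 at 13.97. TAF1D (1.65) and GTF2E1 (2.83) were low by this measure. The order moved with the length used: divided by the length of the canonical transcript, TAF6 came first at 144 CPM per kilobase, and 8 of the 10 highest members were shared. AP4M1 covers 19.7% of the exonic bases of TAF6 on the opposite strand.

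The partners that members work with were taken from lists of 93 other genes of the machinery. These lists were chosen with earlier results of these data known, so their shares are descriptions. Of these, 27 were called (29.0%), 22 higher (23.7%) and 5 lower (5.38%), with a median log2 FC of 0.07. The shares over all genes were 25.4% called, 12.7% higher and 12.7% lower, and each list below is read beside them. Among genes averaging at least 1 CPM the share called was 29.9%, near the 29.0% of these 93. Mediator, which links activators to the polymerase, had 8 of 33 subunits called (24.2%), all higher, among them MED26 (0.38), MED6 (0.37) and MED15 (0.34). Its median was 0.12. MED26 was at 0.25 without replicate 1 and MED6 at 0.22 without replicate 3, and neither was then called (edgeR BH-adjusted p of 0.105 and 0.172). Of 19 subunits of RNA polymerases I and III, 4 were called (21.1%), all higher, with POLR3F at 0.40, POLR3C at 0.38 and POLR1D at 0.31. Without replicate 3 the calls of POLR3F (0.24) and POLR1D (0.16) were lost (edgeR BH-adjusted p of 0.0913 and 0.133). RNA polymerase II had 2 of 12 subunits called (16.7%), in opposite directions. POLR2A, which encodes its catalytic subunit, had a log2 FC of -0.38, and POLR2H, a subunit shared by all polymerases, one of 0.31. POLR2A was at -0.22 without replicate 2 and POLR2H at 0.32 without replicate 1, neither then called (edgeR BH-adjusted p of 0.0623 and 0.0523). DESeq2 with the block called neither (BH-adjusted p of 0.229 and 0.0522).

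Among 15 partners of TFIIH, TFIIIB, TBP repression and RNA polymerase I initiation, 6 were called (40.0%), 5 higher and 1 lower. The TFIIH helicases were split, ERCC2 being higher (0.35) and ERCC3 lower (-0.19). RRN3, which joins RNA polymerase I to SL1, was higher (0.30), and so was SNAPC4 of the small nuclear RNA activating complex (0.25). Of these, ERCC2 kept its call without each replicate in turn, ERCC3 lost it each time, RRN3 lost it without replicate 1 and SNAPC4 without replicate 1 or 2. In SAGA, where TAF5L and TAF6L serve, 7 of 14 partners were called (50%). SUPT3H (0.58), TADA2B (0.57) and SGF29 (0.43) were the highest, while TADA1 (-0.37), USP22 (-0.25) and KAT2B (-0.23) were lower, so that the median was -0.02. The 3 highest kept their calls without each replicate in turn, with SUPT3H at 0.38 without replicate 3. TADA1 was not called without replicate 2 (-0.22, edgeR BH-adjusted p of 0.370) or 1, USP22 not without replicate 1, and KAT2B not without replicate 1 or 3. TADA1 and KAT2B were also not called by DESeq2 with the block or with library totals alone. With the counts left unblocked edgeR called 0 of the 93, 18 having an unadjusted p under 0.05.

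**Figure D3:**
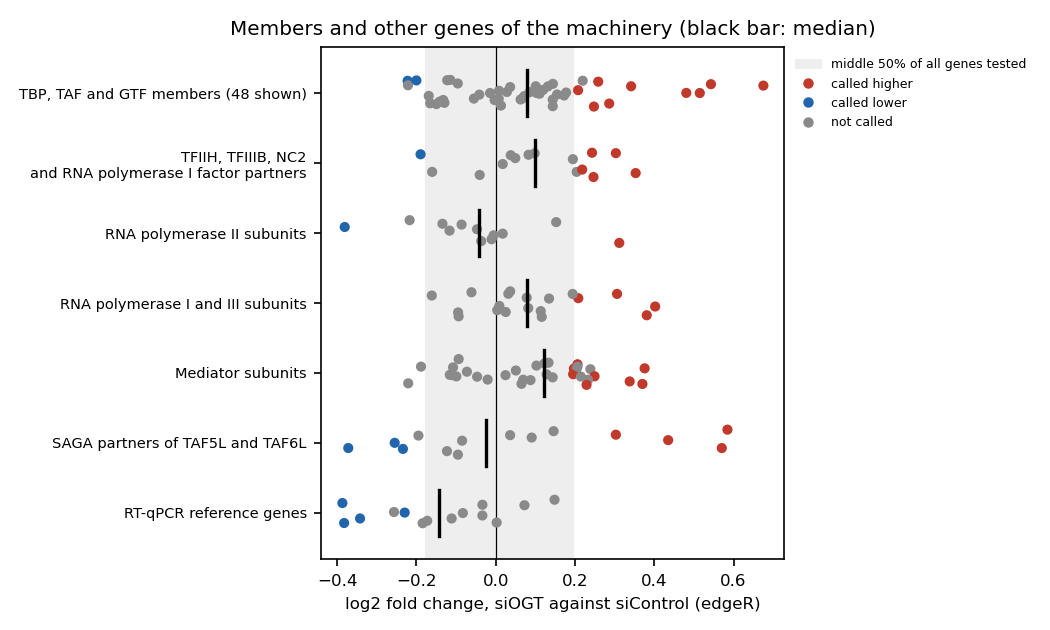
Log2 FC of siOGT against siControl (x axis) for the members with at least 500 counts and for 6 other gene lists, 1 point per gene, with the list median as a black bar, calls in red (higher) and blue (lower), and the middle 50% of all genes tested in grey. The member median of 0.08 lies inside the grey band, as does that of each other list, and all 4 calls among RT-qPCR reference genes are blue.

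In the study TBP served as the reference gene of RT-qPCR in LX-2 cells that received siRNA, so the primers are shown. They lie in coding exons 3 and 4 of 8 of the TBP gene and give a product of 117 bases in 5 annotated transcripts (GENCODE 44, hg38), all of TBP. They are printed in lower case throughout.
TBP forward primer, chr6:170562201-170562220: ttcggagagttctgggattg
TBP reverse primer, chr6:170564609-170564628: ggattatattcggcgtttcg

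Of 14 other genes often used as references, 0 were called higher by edgeR and 4 were called lower (28.6%, against 12.7% of all genes), namely PGK1 (-0.39), HPRT1 (-0.38), TFRC (-0.34) and PPIA (-0.23). The median of the 14 was -0.14. This list too was chosen with earlier results of these data known, so its share is a description. What the choice of TBP as a divisor does to a ratio was computed from the RNA-seq values, for genes with primers in the study. Dividing by TBP lowers each log2 ratio by that of TBP in the same pair, which was 0.50, 0.35 and 0.69. The mean log2 ratio of COL1A1 went from -0.39 (SD 0.18) to -0.90 (SD 0.17) and that of COL3A1 from -0.64 (SD 0.30) to -1.15 (SD 0.37), over 3 pairs. COL1A2 went from -0.32 (SD 0.29) to -0.83 (SD 0.38). All of these collagens were lower in 3 of 3 pairs on either scale. ACTA2 went from 0.27 (SD 0.54), with 1 of 3 pairs lower, to -0.25 (SD 0.64), with 2 of 3 pairs lower. For BNC2, which lay at -0.01 (SD 0.06), the value per TBP was -0.52 (SD 0.23), with 3 of 3 pairs lower. A ratio near 0 turns negative by this subtraction alone. The paper reported BNC2 RT-qPCR for LX-2 cells treated with an OGT inhibitor, and its RT-qPCR after siOGT concerned collagen genes. The BNC2 value per TBP here therefore matches no measurement reported there. It also reported lower COL1A1 and COL3A1 protein after siOGT by western blot, which does not rest on TBP. The RT-qPCR itself was not analysed here.

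**Figure D4:**
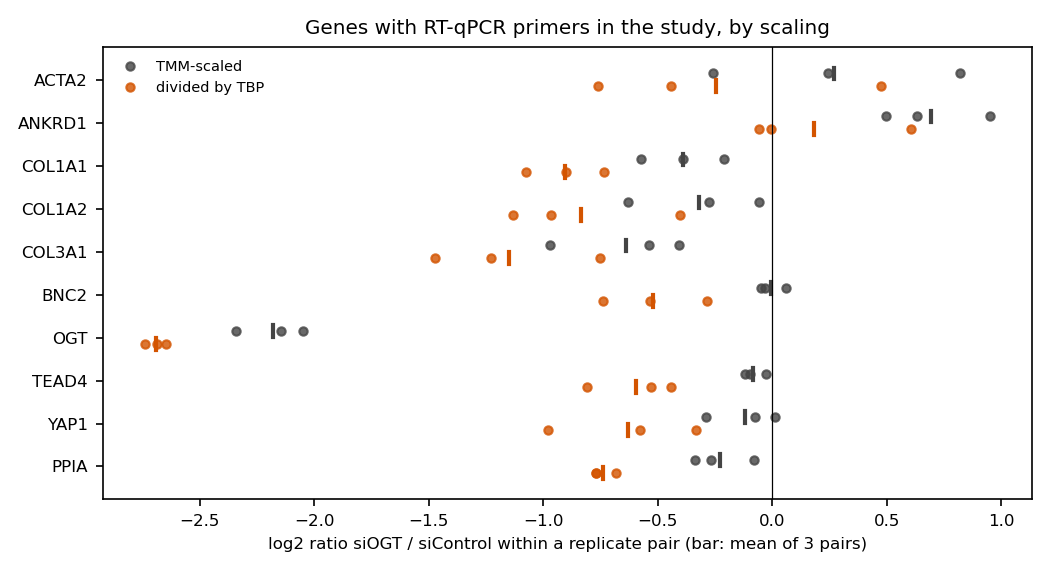
Log2 ratio of siOGT to siControl within each replicate pair (x axis) for 10 genes with RT-qPCR primers in the study, scaled by TMM (grey) or divided by TBP (orange), with bars at the mean of 3 pairs. Each orange mean lies 0.51 to the left of the grey one, and for ACTA2 the mean passes from 0.27 to -0.25.

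**Figure D5:**
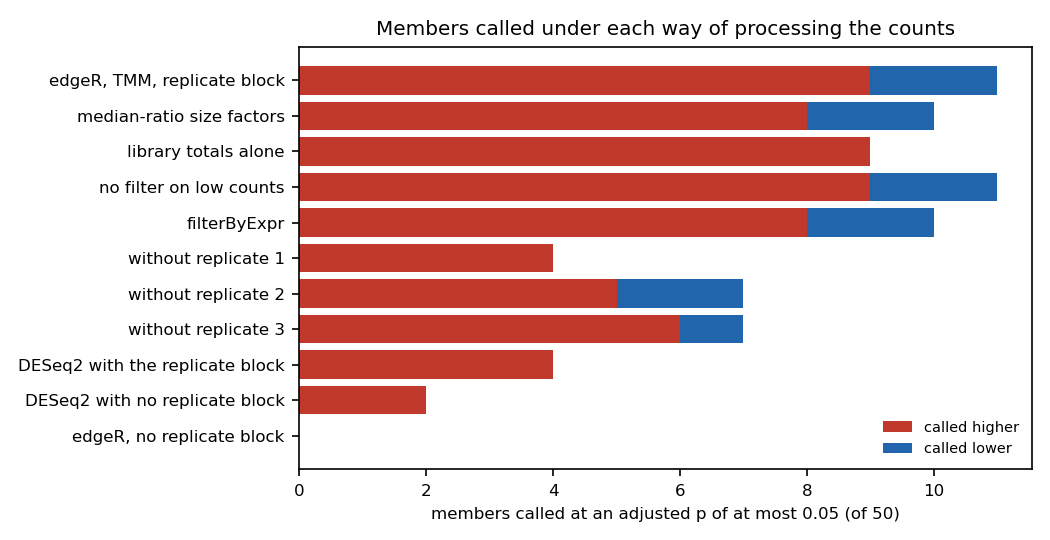
Number of the 50 members called at a BH-adjusted p of at most 0.05 (x axis) under each way of processing the counts, higher in siOGT in red and lower in blue. The bars reach 9 to 11 under other scalings and filters, 4 to 7 when a replicate is left out, 4 and 2 with DESeq2 and 0 with edgeR without the replicate block. In the same order, the shares of all genes called were 24.2% to 27.9%, 12.5% to 23.8%, 16.3% and 5.72%, and 0.875%.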

How the data were processed

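RNA-seq libraries of LX-2 cells (3 siControl, 3 siOGT) were grouped by their labels. Per the study's methods and processing notes, the authors mapped paired-end reads to hg38 with Bowtie2 2.3.5.1 and estimated counts with RSEM 1.3.1, using the strand. The deposited files hold expected counts per gene symbol, which were rounded to whole numbers here. A deposited DESeq2 1.36.0 table holds the authors' log2 fold changes and p-values and was not used. Reads of near-identical genes are shared out by the model of RSEM, so members of such families are uncertain. Genes with a total of at least 10 counts were tested with edgeR 4.0.16 (R 4.3.3), with TMM factors, the quasi-likelihood test and the replicate number as a block, since the methods pair samples of a replicate. Deviations of same-numbered libraries from their group means correlated by 0.69, 0.53 and 0.33 across 12373 genes. Within groups, no pair of libraries was as close as counting noise allows (chi-square per degree of freedom at least 20.3). Alternatives were DESeq2 1.42.0, no block, median-ratio or total scaling, other filters and leaving out each replicate. Pair ratios used a prior count of 2. The fits were tested on simulated data. Lengths and positions came from GENCODE 44 (hg38) and promoters from RefSeq (GRCh38.p14). Members and lists were chosen with earlier results of these data known. Named genes were OGT, every called member, TBP, TBPL1, BTAF1, BRF1, BRF2, TAF paralogs and, per other list, up to 3 called genes in each direction with the largest changes; further members and PPIA were named after their values were seen.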

Additional observations from a re-analysis of the deposited data

How the results depend on the processing

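DESeq2 without the block and the canonical transcript length were added with the results in view. In all 10 alternatives OGT was called lower, with log2 fold changes from -2.25 to -2.11. TBP stayed called in 9, with log2 fold changes from 0.42 to 0.59, and without the replicate block had 0.52 (edgeR adjusted p-value 0.0521). TAF1D also stayed called in 9, with log2 fold changes from 0.63 to 0.71, and no called member stayed called in all 10. Of 21 called genes named from the other lists, 9 kept their calls without each replicate in turn. Without the block, edgeR called 0 members, 0 higher and 0 lower (7 members at an unadjusted p-value under 0.05), and 0 of the other machinery genes (18). The block lowered the common dispersion from 0.0193 to 0.00449. With the block, DESeq2 called 4 members, 4 higher and 0 lower (9 unadjusted), and 15 other machinery genes; without it, it called 2 members, 2 higher and 0 lower (5 unadjusted), and 4 others. The cause of these differences between tools was not tested. With library totals alone 0 members were called lower (2 unadjusted) and 9 higher, when 25.1% of all genes were called. Leaving out a replicate gave 4 to 7 members called, 4 to 6 higher and 0 to 2 lower, and 11 to 24 other machinery genes. The lowest counts were all without replicate 1. Without replicates 1, 2 and 3 in turn, 12.5%, 22.5% and 23.8% of all genes were called. Counting GTF2IRD1, GTF2IRD2 and GTF2IRD2B as members gave 14 called in the main fit, in which 25.4% of all genes were called.

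Reversals concerned members that were not called. BRF1 had 0.0080 with library totals and ran from -0.069 to 0.040 when a replicate was left out. Leaving out a replicate gave -0.068 to 0.32 for TAF4B, -0.066 to 0.11 for TAF5L (-0.012 without replicate 2), -0.085 to 0.096 for TAF7 and -0.28 to 0.57 for GTF2H2C (-0.097 without replicate 3). GTF2H2 summed with its copies had -0.027.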

Other observations

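Genes starting with GTF2I lay outside the symbol rule. GTF2IRD1, a relative of the signal-regulated factor TFII-I, had 57.4, 58.0 and 70.8 CPM in siControl and 79.3, 66.5 and 76.5 CPM in siOGT. The groups overlapped and all 3 pairs were higher (log2 fold change 0.26, edgeR adjusted p-value 0.0169). GTF2IRD2 and GTF2IRD2B, near-identical copies that share reads, had log2 fold changes of 0.46 and 0.33 (edgeR adjusted p-values 0.0286 and 0.0202).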
